A study of Saccharomyces cerevisiae with 8 samples.

Results

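Barcoded haploid mutants of *Saccharomyces cerevisiae* were compared after growth with 20 µM selenomethionine (SeMet) and without it, and the strains of the whole pool are described here from the 3 arrays, of 8 in the series, that hold this comparison. Each array was hybridized with DNA tags of a SeMet pool (Cy3) and of an untreated pool (Cy5), and the deposited value of a probe is the log2 ratio of SeMet over untreated. Probes of the same gene were averaged on each array, and the mean over arrays is called the relative fitness score of the strain. A strain was scored when at least 2 of the 3 arrays gave a value, which left 4536 of the 4749 strains with a value anywhere in the series. Of these, 4409 had 3 values and 127 had 2. A negative score means that the mutant was less abundant in the SeMet pool than in the untreated pool after 10 generations.

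The pool joined deletion mutants of BY4741 with DAmP strains, in which the messenger RNA of an essential gene is made less stable. Gene names do not tell these kinds apart. BY4741 itself already lacks *HIS3*, *LEU2*, *MET17* and *URA3*. Every pool recovered for 9 h and was then grown in synthetic complete medium with 2% glucose, 0.1 mM methionine and 0.1 mM cysteine. For comparison stand 2 arrays of 12 µM SeMet against untreated and 3 arrays of untreated cells after 16 h against the pool at time 0, called the growth score. The dyes were not swapped on any array of SeMet, so an effect of the dye is part of each value and cannot be told apart from that of SeMet. The labels call the arrays biological replicates and do not say whether arrays share an untreated culture.

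SeMet is the selenium analogue of methionine. Cells take it up, charge it to tRNA in place of methionine and convert it by the methyl cycle and transsulfuration, so that selenium can reach cysteine as well. In a pooled screen, a depleted mutant made up a smaller share of the pool with SeMet than without it, and an enriched mutant a larger share. A mutant that grows slowly without SeMet can thus be enriched and still fall behind the pool in SeMet. A score is therefore relative to the pool and not an absolute rate.

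The spread of the strains, as an SD, was 0.80 on array 1, 0.78 on array 2 and 1.11 on array 3, and their medians were −0.04, −0.06 and −0.15. Array 3 thus had the widest spread. The median SD of a strain over the arrays was 0.25. Values after ± are such SDs over 3 arrays unless another n is given. In limma over all 8 arrays as 3 groups, with Benjamini-Hochberg adjustment over 4536 strains, 651 strains (14.4%) were lower and 570 (12.6%) higher than 0 at an adjusted p under 0.05, or 1221 in all (26.9%). In simulated data with the measured spread of each strain and group, this fit made more false calls than the adjusted threshold allows, so single calls are to be read with their values. Without array 3 these counts were 393 and 393, and with the arrays of 20 µM alone in the fit they were 420 and 407. When the median of every array was first set to 0, which moved the median of all strains by 0.09, they were 543 and 643, so which side was larger depended on the centring.

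A call was therefore named a held call when it was also made, in the same direction, without each array of 20 µM in turn, with these 3 arrays alone and after each array had been centred. Held calls comprised 305 lower (6.72%) and 338 higher strains (7.45%). The 127 strains with 2 values count in these shares but could not be held. Leaving out 1 of their values left too few for the fit. Of the 338 held higher strains, 295 lay above the mean of arrays 1 and 2 on array 3. Of the 305 held lower strains, 207 lay below it there. With −1.5 as the limit of a sensitive strain and 1.5 as that of a resistant one, 139 strains (3.06%) were sensitive and 242 (5.34%) resistant.

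**Figure D1:**
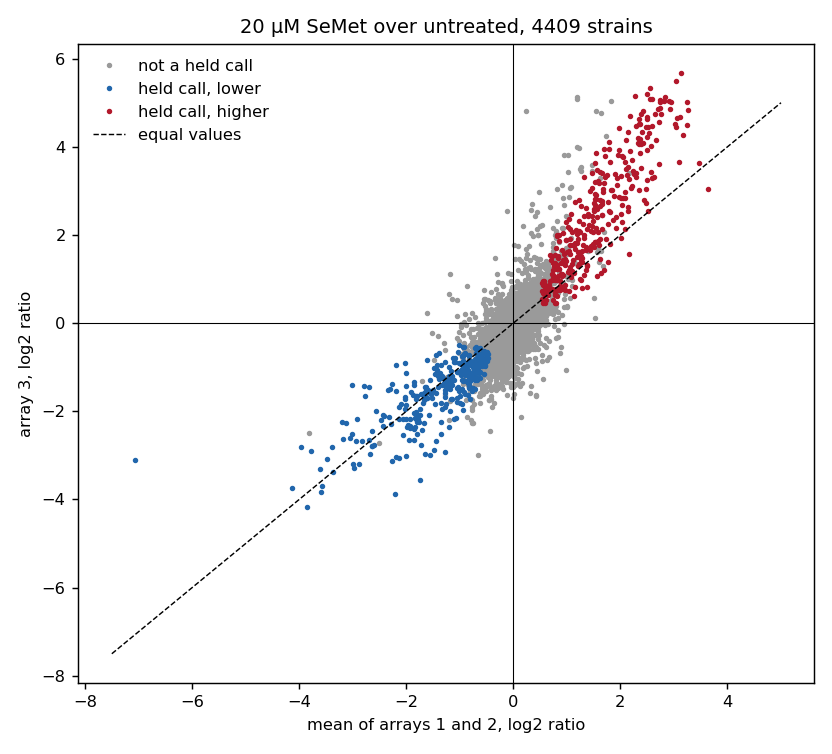
Log2 ratio of SeMet over untreated on array 3 (vertical axis) against the mean of arrays 1 and 2 (horizontal axis) for the 4409 strains with 3 values; each point is a strain, coloured by held call, and the dashed line marks equal values. The 338 held higher strains lie mostly above the line (295 strains), and the isolated point at the far left is *THR4*, which scored −9.15 on array 2.

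Cytosolic ribosomal proteins, ribosome assembly factors, the proteasome and the ESCRT complexes made up 204 of the scored strains, 41 of them called lower and 110 higher. The other 4332 strains had 610 lower and 460 higher calls, of which 276 and 254 were held. Outside these lists, 115 strains were below −1.5 (98 of them held calls) and 150 above 1.5 (115 held). Their median was −0.10. The strains nearest the lower limit were *FRS1* and *STO1* at −1.51 inside it and *DUG2* at −1.49 outside it, with *SOD2* between them at the limit. At the upper limit *RMD11* (1.51) and *DIA2* (1.52) lay inside, and *TRM1* and *NEM1* (1.49 each) outside. Lists of 114 other processes, complexes and pathways held 1347 of these strains, and 2985 were in no list.

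The lowest held scores outside the ribosome, proteasome and ESCRT lists came from very different functions. *THR4*, which encodes threonine synthase, scored −4.99, −9.15 and −3.11 on arrays 1, 2 and 3, with a mean of −5.75 ± 3.09 (SD, n = 3; adjusted p = 0.0030, limma). *RRD1*, an activator of PP2A-type phosphatases, scored −5.37, −2.90 and −3.75, a mean of −4.01 ± 1.26 (adjusted p = 0.00027, limma). *PBI2*, whose product inhibits the vacuolar protease Prb1, had −3.61, −3.59 and −3.84, a mean of −3.68 ± 0.14 (adjusted p = 4e-05, limma). The SD of *THR4* was the widest of the 15 lowest strains, and array 2 set it, whereas the 3 values of *PBI2* lay within a narrow range. The mean of *PBI2* is a 12.8-fold lower ratio of the mutant in SeMet than in untreated cells.

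*IRC21*, a gene with a cytochrome b5 domain and little known function, was as even as *PBI2*, with −2.99, −3.01 and −3.20 (mean −3.07 ± 0.12). *MET13*, the main methylenetetrahydrofolate reductase, which supplies the methyl group for methionine synthesis, scored −3.71, −3.53 and −3.31 (mean −3.52 ± 0.20). *GPH1*, glycogen phosphorylase, scored −4.08, −2.28 and −2.64 (mean −3.00 ± 0.95). Array 1 gave the lowest value in 10 of the 15 lowest strains. The others were *YNL040W* (−3.96), related to the editing domain of alanyl-tRNA synthetase, *HRT1* (−3.62), the RING subunit of SCF ubiquitin ligases, the peroxiredoxin *TSA1* (−3.57), the flippase kinase *FPK1* (−3.49) and *LDB19* (−3.37), an arrestin-type adaptor of the ubiquitin ligase Rsp5. *TIP41* (−2.99) encodes a partner of the phosphatase regulator Tap42, *PHO23* (−2.85) a subunit of the Rpd3 large deacetylase complex, *HPT1* (−2.77) the hypoxanthine-guanine phosphoribosyltransferase and *KOG1* (−2.76) a subunit of the kinase complex TORC1. *THR1*, homoserine kinase of the same pathway as *THR4*, had only 2 values, −4.55 and −4.25, and so did *ADE3*, a folate interconversion enzyme, with −3.24 and −5.00. Both were called lower, and with 2 values neither could be a held call.

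Among the highest held scores were activators of mRNA decapping, regulators of transcription and metabolic enzymes. *LSM1*, a subunit of the Lsm1-7 ring that binds the 3' end of mRNA to be decapped, scored 2.82, 3.69 and 5.03, a mean of 3.84 ± 1.11 (adjusted p = 0.00022, limma). *EAP1*, which binds the cap-binding factor eIF4E, scored 2.77, 3.77 and 4.82 (mean 3.79 ± 1.03, adjusted p = 0.00016, limma). *ARP8*, an actin-related subunit of the INO80 remodeller, scored 3.26, 3.09 and 4.28 (mean 3.54 ± 0.64, adjusted p = 0.00025, limma). In each the highest value was on array 3, as in 13 of the 15 highest strains, and none had a value under 1.90 on any array.

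Alongside stood *TUP1* (3.66), a general corepressor, *LSM6* (3.63), *PAT1* (3.57) and *DHH1* (3.34) of the decapping machinery, *NGG1* (3.58), the Ada3 subunit of SAGA, and *PUS7* (3.51), a pseudouridine synthase. *BEM2* (3.44) encodes a GTPase-activating protein for Rho1 and was highest on array 1. Enzymes of this group were *SAM1* (3.64), S-adenosylmethionine synthetase, *LYS20* (3.60), homocitrate synthase of lysine synthesis, *RHR2* (3.23), glycerol-3-phosphatase, also called *GPP1*, and *ALT1* (3.17), alanine transaminase. *FYV5* (3.52) has little known function.

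**Figure D2:**
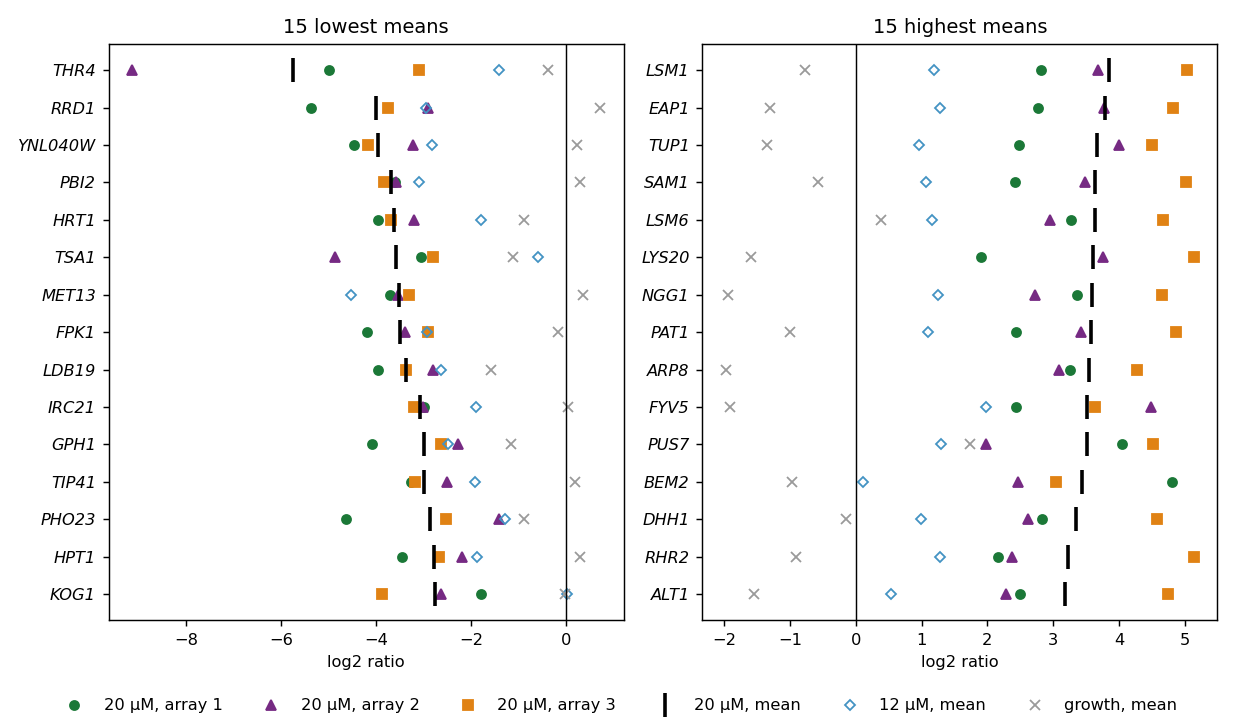
Log2 ratios of the 15 lowest (left) and 15 highest (right) held strains outside the ribosome, assembly, proteasome and ESCRT lists. Green circles, purple triangles and orange squares are arrays 1, 2 and 3 of 20 µM, the black bar is their mean, the open diamond the mean at 12 µM and the grey cross the growth score; the square is rightmost in 13 of the 15 highest strains, and the mean of 12 µM is near 0 for *KOG1*.

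The SeMet scores can be set beside growth without SeMet, bearing in mind that both ratios contain an untreated pool and are thus not independent. Of 4515 strains tested for growth, limma called 523 slow (11.6%) and 639 fast (14.2%). The median growth score was −0.64 in the 115 held strains above 1.5, −0.16 in the 98 held strains below −1.5 and 0.09 over all strains. *ARP8* had a growth score of −1.98 ± 0.23 (SD, n = 2), and *FYV5* of −1.91 ± 0.26. *PUS7* went the other way, with a growth score of 1.73 ± 0.55 and a call of fast growth. The part of slow growth in the scores was not tested.

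Genes of methionine use and one-carbon supply differed in direction within each pathway. Of 8 scored genes of the methyl cycle and transsulfuration, 3 were higher and 1 lower, all held. The S-adenosylmethionine synthetases *SAM1* and *SAM2* (3.08 ± 1.00) and *CYS3* (1.95 ± 0.92), cystathionine gamma-lyase, were higher, and *SAH1* (−0.99 ± 0.53), S-adenosylhomocysteine hydrolase, was lower. Of 10 folate enzymes, 2 were lower, namely *MET13* and *ADE3*, or 1 without array 1 or array 3 and 3 without array 2. *MET12* (1.92 ± 0.67), a second methylenetetrahydrofolate reductase, was higher. Among the 5 scored regulators of sulfur genes, the activator *MET31* was the held higher call (3.07 ± 1.25), and its relative *MET32* (−0.83 ± 0.35) and the cofactor *MET28* (−1.15 ± 0.38) were lower. *MUP1*, the high-affinity methionine permease, had 1.40 and 2.25 on arrays 2 and 3 and no value on array 1 (mean 1.83 ± 0.61, n = 2; adjusted p = 0.022, limma). Among these higher strains, growth scores without SeMet were −2.18 for *MUP1*, −1.69 for *CYS3*, −0.57 for *SAM1* and −0.34 for *SAM2*. For *MET12* and *MET31* they were 0.23 and 0.70. Sulfate assimilation, with 9 scored genes, had 1 held call and a median of −0.25. The parent strain already lacks *MET17*, whose enzyme brings inorganic sulfur into homocysteine, so this list is a limited test of that route.

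Outside sulfur metabolism, the threonine list had 2 of 3 scored genes lower, *THR4* and *THR1* given above, and *HOM2*, an earlier enzyme of the pathway, had a mean of 0.21 and was not called. Of 9 scored lysine genes only *LYS20* was called, with 1.90, 3.76 and 5.14 on the arrays, whereas its paralogue *LYS21* had 0.10, −0.17 and −0.06. Of 8 arginine genes only *ARG2* (2.24 ± 0.75), the first enzyme of ornithine synthesis, was called. *LEU3* (−2.18 ± 0.42), the activator of leucine genes, and *LEU4* (−0.88 ± 0.36), an isopropylmalate synthase, were lower among 8 branched-chain genes. Because the parent strain already lacks *LEU2*, these scores are a limited test of leucine synthesis. *GDH1* (−1.95 ± 0.19), the main glutamate dehydrogenase for nitrogen assimilation, and *GCN4* (−1.21 ± 0.32), the activator of general amino acid control, were lower as well. None of the 6 histidine genes was called, with a median of −0.05. The parent strain already lacks *HIS3*, so a further loss in this pathway is no test of it. *DAL81*, a transcription factor that acts with the sensor of external amino acids, had 2.98 and 4.21 on arrays 2 and 3, and its partner *STP1* averaged 1.98 ± 1.18. Growth scores without SeMet were −3.07 for *DAL81*, −1.59 for *LYS20*, −0.75 for *ARG2* and 0.22 for *STP1*.

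Mutants of copper and iron supply were among the most depleted. Copper enters through Ctr1, is loaded by the Golgi pump Ccc2 into the oxidase Fet3, and Fet3 works with the permease Ftr1 to take up iron. *CTR1* scored −2.86, −2.34 and −2.75 (mean −2.65 ± 0.28, adjusted p = 0.00022, limma), *CCC2* averaged −1.91 ± 0.16, *FET3* −1.88 ± 0.28 and *FTR1* −1.60 ± 0.27. All 4 were held calls and below 0 on every array, and 5 of 8 scored genes of the list were lower and 0 higher (median −1.43). *ATX1*, the chaperone that carries copper to Ccc2, had a mean of 0.38 and *FRE1*, a metal reductase, of 0.07, and neither was called. *CTR1* and *FTR1* were called slow in growth without SeMet (growth scores −1.05 and −0.96), as was *AFT1* (−2.60), the activator of iron uptake genes, whose SeMet mean of −1.27 was not called.

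Defence against oxidants was divided between a few low strains and many near 0. Of 14 genes of superoxide and peroxide defence, 4 were lower: *TSA1*, *SOD1* (−1.70 ± 0.28), the cytosolic superoxide dismutase, *SOD2*, its mitochondrial counterpart, with 2 values, and *DOT5* (−0.84 ± 0.11). *YAP1*, the activator of oxidative stress genes, was higher (1.53 ± 0.35). In the thiol systems 6 of 17 were lower and 0 higher, with 3 lower when the arrays of 20 µM were fitted alone. They included *YCF1* (−2.69 ± 0.35), the vacuolar exporter of glutathione conjugates, *GSH2* (−2.57 ± 1.06), glutathione synthetase, *GRX3* (−1.92 ± 0.37), a glutaredoxin of iron regulation, and *MXR2* (−1.29 ± 0.76), a methionine sulfoxide reductase. *GSH2* also had a growth score of −3.88 ± 1.16. In the pentose phosphate pathway 0 of 9 and among multidrug pumps and their regulators 0 of 17 were called, with medians of −0.01 and −0.16.

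In NAD synthesis the lowest strains belonged to the use of nicotinic acid. *TNA1*, its permease, scored −1.98, −1.51 and −2.08 (mean −1.86 ± 0.31), and *NPT1*, nicotinate phosphoribosyltransferase, −2.44, −1.76 and −1.83 (mean −2.01 ± 0.38). *NMA1*, an adenylyltransferase that also serves the route from tryptophan, had −1.17, −1.15 and −1.37 (mean −1.23 ± 0.12). These 3 were the held calls of the list. Its other called members, *BNA6*, *BNA3* and *PNC1*, lay between −0.54 and −0.47. *QNS1*, the last enzyme of both routes, had −0.24 and was not called, as were *BNA1*, *BNA2*, *BNA4*, *BNA5* and *BNA7* of the route from tryptophan. In all 6 of 14 genes were lower and 0 higher, and 3 were lower with the arrays of 20 µM fitted alone.

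Purine salvage held a pair of opposite strains. *HPT1* scored −3.46, −2.18 and −2.67, and *AAH1*, adenine deaminase, which makes the hypoxanthine that Hpt1 uses, scored 1.17, 2.38 and 1.38 (mean 1.64 ± 0.64). *PRS3* (3.16 ± 0.95) and *PRS5* (2.24 ± 1.23), subunits of the synthetase of phosphoribosyl pyrophosphate, were both held higher calls and were picked after their values were seen. *PRS4*, another subunit, averaged 0.06 ± 0.32. *AAH1* and *PRS3* were called slow in growth without SeMet (growth scores −1.71 and −2.54).

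Outside the ESCRT complexes, much of the endosomal sorting machinery was low. Of 10 scored genes of PI3-kinase complexes and retromer, 9 were lower and 0 higher, 6 as held calls, with a median of −0.85. *VPS38*, the subunit specific to the PI3-kinase complex of endosomes, was the lowest with −1.94, −1.55 and −1.95 (mean −1.81 ± 0.23). The cargo-binding subunits of retromer followed, *VPS29* (−1.03 ± 0.44), *VPS35* (−0.96 ± 0.04) and *PEP8* (−0.75 ± 0.19), together with *VPS30* (−1.02 ± 0.12). *ATG14*, the subunit specific to the autophagy complex, averaged 0.03 and was the member that was not called. Among 25 autophagy genes 3 were lower and 1 higher, none of them held, and 0 or 1 lower when 1 array was left out. Their median was −0.15. Fusion with endosome and vacuole was divided, with 4 of 11 scored genes lower, 2 of them held, and 1 higher, *VPS41* (0.97 ± 0.92), and a median of −0.07. Of its lower strains, *VPS9* (−1.98 ± 1.33, n = 2) and *VPS3* (−3.00 ± 0.62, n = 2) had 2 values and could not be held.

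Recycling from endosomes to the Golgi followed the same direction, with 6 of 11 lower and 0 higher (4 held lower, median −0.63). *TLG2*, a SNARE protein of endosome and Golgi, averaged −1.34 ± 0.26, *VPS52* of the GARP tether −0.99 ± 0.19, and *SYS1* (−0.91 ± 0.24) and the golgin *IMH1* (−0.91 ± 0.15) belong to the pathway that recruits the GTPase Arl1. *GGA2* (−2.04 ± 0.73), an adaptor of clathrin at the Golgi, was lower. In the endocytic actin patch 8 of 25 were lower and 0 higher, or 5 of 25 without array 1, with *VRP1* (−1.26 ± 0.36) and *RVS167* (−0.93 ± 0.45) held. In the exomer, which carries chitin synthase from the Golgi, *BCH1* scored −2.35, −1.38 and −2.41 (mean −2.05 ± 0.58) and *CHS5* averaged −1.54 ± 0.89. *BCH2*, a relative of *BCH1* in the same coat, scored 2.39, 1.90 and 4.33 (mean 2.87 ± 1.29).

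Vacuolar enzymes gave both low strains and strains near 0. *ATG15*, the lipase that opens autophagic bodies, averaged −1.91 ± 0.26, *APE3*, aminopeptidase Y, −1.78 ± 0.15 and *CPS1*, carboxypeptidase S, −1.23 ± 0.26, all held. With *PBI2*, 4 of 8 genes were lower and 0 higher. The major proteases were not called: *PEP4* averaged −0.08, *PRB1*, the target of Pbi2, −0.24, and *PRC1* 0.06.

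The endoplasmic reticulum gave lists of both directions. The GET pathway, which inserts tail-anchored proteins into the membrane, had 5 of 6 lower and 0 higher with a median of −1.16, though 2 of 6 with the arrays of 20 µM fitted alone. *GET2*, a subunit of the membrane receptor, scored −2.20, −2.49 and −1.52 (mean −2.07 ± 0.50), and *GET3*, the targeting ATPase, averaged −1.24 ± 0.38. The ER membrane complex, another insertase, had 4 of 7 lower and 0 higher (median −0.74), with *EMC4* (−0.94 ± 0.26), *EMC1* (−0.87 ± 0.21) and *AIM27* (−0.74 ± 0.31), now *EMC3*, held. *EMC2* had 0.58 and −3.68 on 2 arrays and was not called.

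By contrast, assembly and transfer of the N-glycan had 10 of 18 genes higher and 0 lower, 8 of them held, with a median of 0.59. The sugar tree is built on a lipid by Alg enzymes and moved to protein by the oligosaccharyltransferase. Of the transferase, *OST4* scored 1.96, 1.26 and 2.80 (mean 2.01 ± 0.77), *OST3* 0.86, 0.87 and 0.85 (mean 0.86 ± 0.01), and *WBP1* (0.98 ± 0.26), *SWP1* (0.66 ± 0.22) and the catalytic *STT3* (0.60 ± 0.12) were higher too. *OST3* was the most even strain of the list. Of the Alg enzymes, *DIE2* (1.32 ± 0.30), the last glucosyltransferase, *ALG9* (0.88 ± 0.43) and *ALG3* (0.86 ± 0.21), both mannosyltransferases, were held. Apart from *OST4* all these scores were within the limit of 1.5. The median growth score of the 18 genes was −0.07.

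Attachment of GPI anchors held both signs. *GWT1*, which acylates inositol of the precursor, scored −1.70, −2.43 and −2.53 (mean −2.22 ± 0.45), and *GPI16*, a subunit of the transamidase, −1.68, −1.92 and −2.52 (mean −2.04 ± 0.43). On the high side stood *BST1* (1.80 ± 0.29), the inositol deacylase, *LAS21* (1.74 ± 0.60), which adds a side-chain phosphoethanolamine, and *PER1* (1.47 ± 0.33), which starts the remodelling of the anchor lipid. *BST1* and *PER1* thus act on the anchor after its attachment. In all 2 of 19 were lower and 5 higher, or 3 higher without any 1 array. *GPI8*, the catalytic subunit of the transamidase, was called higher at 0.33 ± 0.11 and was not held. In protein folding of the ER, *EPS1* (2.62 ± 1.04), a disulfide isomerase, and *CNE1* (1.07 ± 0.47), calnexin, were held higher among 16 genes.

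**Figure D3:**
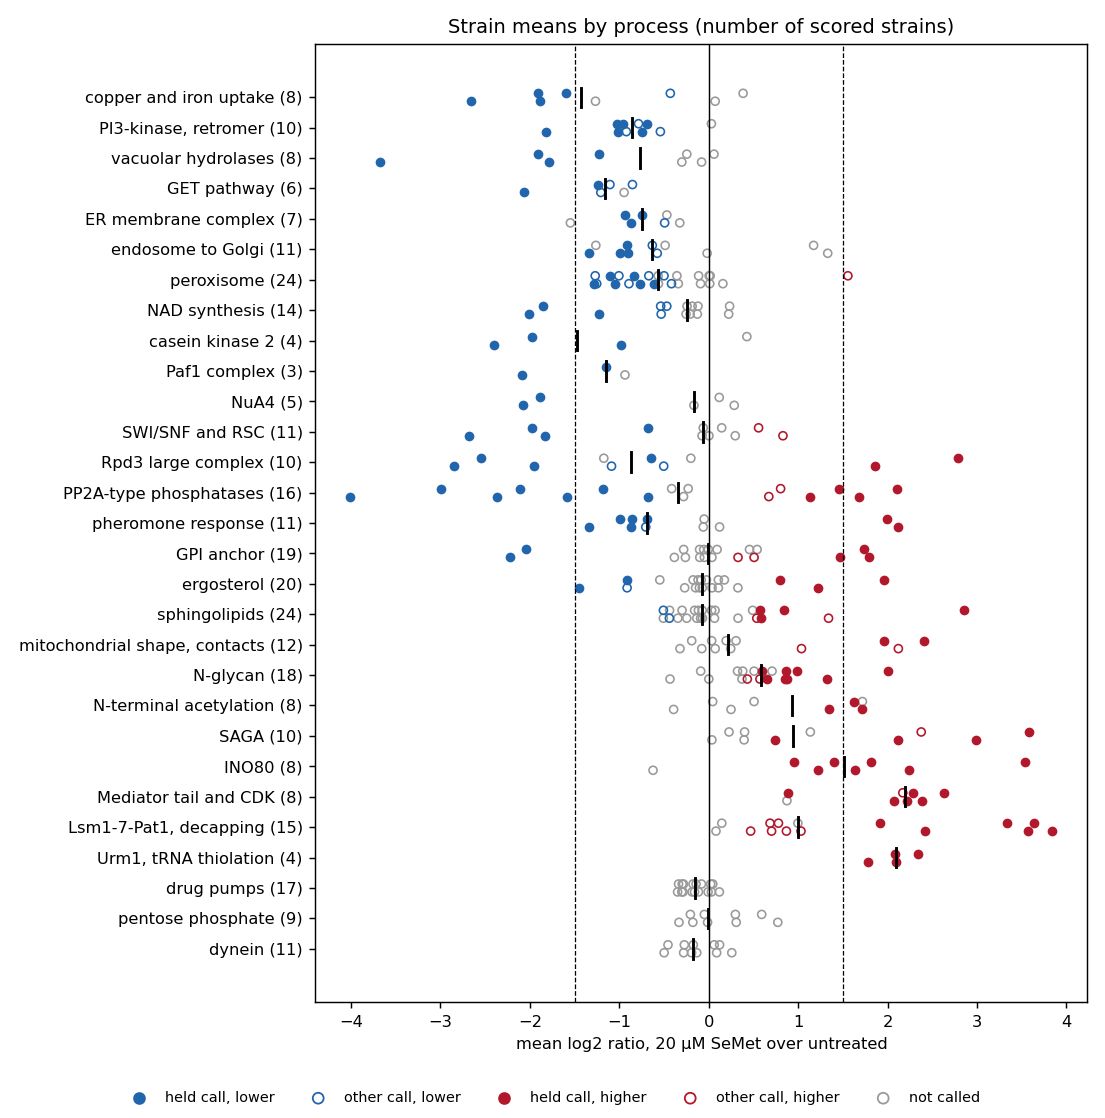
Mean log2 ratio at 20 µM SeMet over untreated (horizontal axis) of every scored strain in 29 gene lists, with the number of scored strains in brackets. Filled points are held calls, open coloured points other calls and grey points strains not called; the thick bar is the list median and dashed lines mark −1.5 and 1.5. Copper and iron uptake (median −1.43) lies to the left, INO80 (1.52) to the right, and the 17 drug pump genes lie close to 0.

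Peroxisome biogenesis had 13 of 24 genes lower and 1 higher, with a median of −0.56 and 6 held lower calls. Peroxins import folded enzymes by a cycle in which the receptor Pex5 docks, is ubiquitinated and is pulled back out by an ATPase. The held strains were *PEX5* (−0.83 ± 0.18), *PEX13* (−1.11 ± 0.53) and *PEX17* (−0.61 ± 0.22) of docking, *PEX6* (−1.04 ± 0.36), the ATPase, *PEX15* (−1.28 ± 0.69), its membrane anchor, and *PEX19* (−0.77 ± 0.12), the chaperone of membrane peroxins. None passed −1.5. With the arrays of 20 µM fitted alone 6 were lower, and with 1 array left out 9 to 11 were. *PEX14* and *PEX8* had −2.25 and −2.26 on array 3 and values between −0.82 and −0.72 on arrays 1 and 2.

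Mitochondrial strains were high at contact sites and low in part of the cytochrome c pathway. The ER-mitochondria tether ERMES is built from Mdm10, Mdm12 and Mdm34 with a further protein. *MDM10* scored 1.79, 1.64 and 3.80 (mean 2.41 ± 1.21), *MDM34* 1.90, 0.97 and 3.01 (mean 1.96 ± 1.02) and *MDM12* 1.35, 1.57 and 3.44 (mean 2.12 ± 1.15). All were called, *MDM10* and *MDM34* as held calls, and all were slow in growth without SeMet, with growth scores of −2.66, −3.50 and −3.82. The list of mitochondrial shape and contacts had 4 of 12 higher, the other being *MDM31* (1.04), and 2 without array 3. The respiratory chain list had 6 of 24 lower and 1 higher, or 3 lower without array 3. *CYC3*, which attaches heme to cytochrome c (−1.30 ± 0.57), *CYC1*, the main cytochrome c (−0.95 ± 0.31), and *COX12* (−0.75 ± 0.21) of cytochrome oxidase were held lower calls. *NDE1* (2.94 ± 0.98), the external NADH dehydrogenase, was higher. ATP synthase had 4 of 12 higher and 0 lower, or 0 higher without array 3. Of 55 mitochondrial ribosomal proteins 13 were higher and 3 lower, but only 3 were higher without array 3, and 0 of 12 genes of the tricarboxylic acid cycle were called.

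Lipid genes gave a few strong strains. *SUR4*, a fatty acid elongase for sphingolipids, scored 2.10, 2.62 and 3.86 (mean 2.86 ± 0.90), and *FEN1*, the other such elongase, averaged 1.34 ± 0.73 and was called but not held. *ERG26* (1.96 ± 0.73) and *ERG4* (1.22 ± 0.68) of later ergosterol synthesis were higher, whereas *HMG1* (−1.45 ± 0.43) and *HMG2* (−0.91 ± 0.15), the HMG-CoA reductases at its start, were lower. *ERG26* was slow in growth (−3.63 ± 0.29). *NEM1* (1.49 ± 0.78) and *SPO7* (1.42 ± 0.70), which form the phosphatase that activates phosphatidate phosphatase, were both held higher calls.

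In signalling, the phosphatases of the PP2A family split most clearly, with 7 of 16 lower and 6 higher, 7 and 4 of them held. The PP4 enzyme was low in each scored subunit: *PPH3*, its catalytic subunit, had −2.75, −2.38 and −1.99 (mean −2.37 ± 0.38), *PSY2* averaged −2.11 ± 0.70 and *PSY4* −1.18 ± 0.27. *RRD1* and *TIP41* were low as given above. Genes of PP2A itself were high, namely *RTS1* (2.11 ± 0.75), a regulatory subunit, *PPH21* (1.13 ± 0.45), a catalytic subunit, and *PPM1* (1.46 ± 0.33), the methyltransferase of the catalytic subunits. *RRD2*, the relative of *RRD1*, scored 1.32, 1.67 and 2.07 (mean 1.68 ± 0.37). *SAP155* (−1.58 ± 0.74) and *SAP190* (−0.67 ± 0.25), partners of the phosphatase Sit4, were lower.

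Casein kinase 2 was lower in 3 of 4 subunits, all held. The regulatory subunits *CKB1* (−2.60, −2.94 and −1.65) and *CKB2* (−2.06, −2.48 and −1.38) averaged −2.40 ± 0.67 and −1.97 ± 0.56, and the catalytic *CKA2* averaged −0.98 ± 0.29. *CKA1*, the other catalytic subunit, had −0.56, 1.77 and 0.07 and was not called. In TORC1, *TOR1* (−0.79 ± 0.14) was lower beside *KOG1*. In the HOG pathway *PTC1*, a phosphatase, had −3.78 and −2.76 on arrays 1 and 2 (mean −3.27 ± 0.72, n = 2) and no value on array 3. *SLG1* (1.98 ± 0.08), a cell wall sensor, was the highest of 12 cell wall integrity genes.

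The pheromone response had 6 of 11 genes lower and 2 higher, 5 and 2 of them held. The lower strains were *STE11* (−1.34 ± 0.38), the first kinase of the cascade, *STE5* (−0.99 ± 0.24), the scaffold, *STE4* (−0.87 ± 0.32), the G protein beta subunit, *STE7* (−0.86 ± 0.28) and *STE20* (−0.70 ± 0.35), further kinases, and *FAR1* (−0.69 ± 0.07), which arrests the cell cycle downstream. The higher strains were *SST2* (2.00 ± 0.43), which turns the G protein off, and *FUS3* (2.12 ± 1.11), the last kinase. *STE2*, the receptor, and *KSS1*, the related kinase, were not called.

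**Figure D4:**
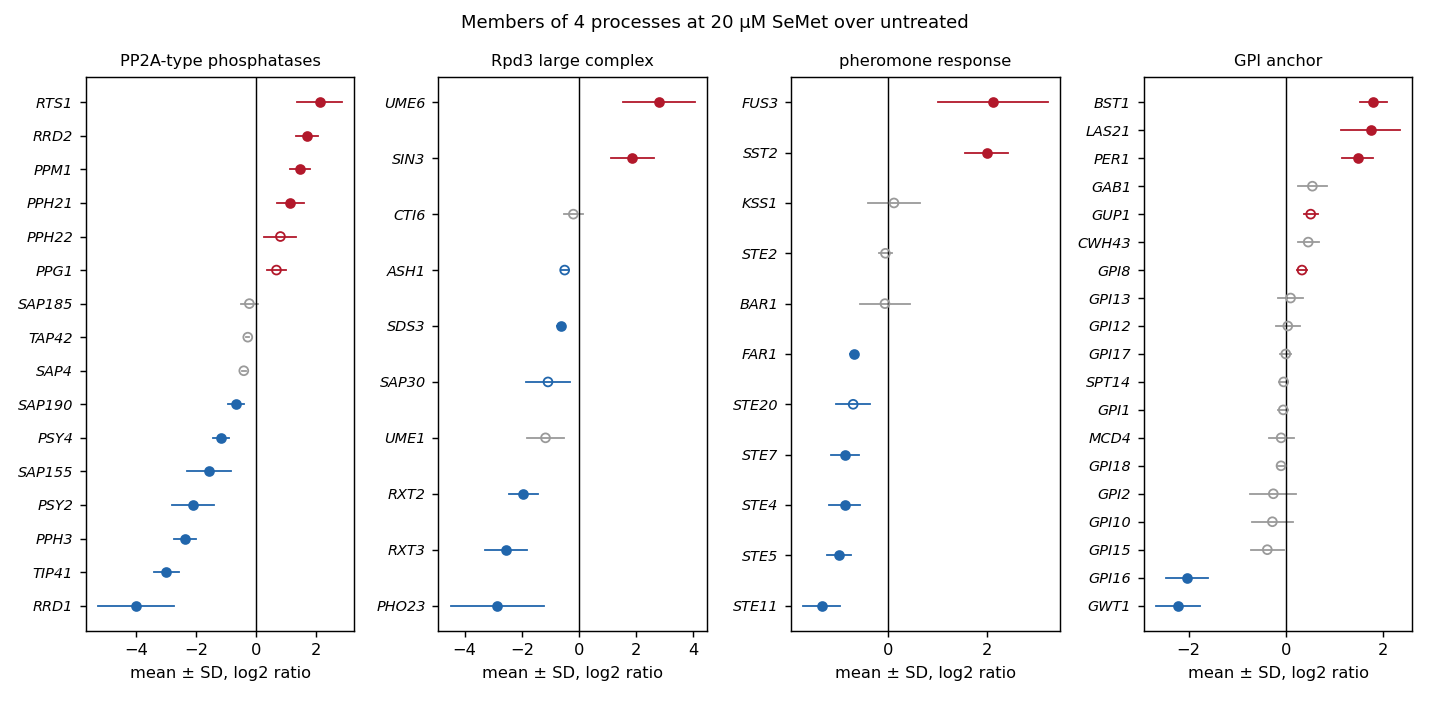
Mean ± SD over arrays of the log2 ratio at 20 µM SeMet over untreated for every scored strain of 4 processes with members on both sides of 0. Filled points are held calls (blue lower, red higher), open coloured points other calls and grey points strains not called; *RRD1* (−4.01) and *RRD2* (1.68) stand at opposite ends of the phosphatases.

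In some chromatin complexes most scored genes were called in the same direction, and others were split or mostly not called. In INO80, a remodeller of the histone variant H2A.Z, 7 of 8 genes were higher and all 7 held, with a median of 1.52. Beside *ARP8* these were *IES3* (2.24 ± 1.04), *IES5* (1.82 ± 0.28), *IES2* (1.63 ± 0.49), *IES4* (1.40 ± 0.35), *NHP10* (1.22 ± 0.20) and *IES1* (0.95 ± 0.26). The strain of the ATPase *INO80* itself had a mean of −0.62 and was not called. *ARP8*, *IES2* and *IES3* were called slow in growth.

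Of the SWI/SNF and RSC remodellers 4 of 11 were lower and 2 higher (median −0.06), the higher ones not held. *LDB7* scored −3.19, −2.19 and −2.65 (mean −2.68 ± 0.50), and it, *RSC1* (−1.97 ± 0.44) and *RSC4* (−1.83 ± 0.95) are subunits of the RSC remodeller. *EAF7* (−2.07 ± 0.60) and *EAF3* (−1.88 ± 0.25), which share a submodule of the acetyltransferase NuA4, were the 2 lower of its 5 scored genes while its catalytic *ESA1* (−0.16) was not called. *PAF1* (−2.08 ± 0.20) and *LEO1* (−1.15 ± 0.41) of the Paf1 elongation complex were lower, 2 of 3 scored subunits. *SIR3* (−0.98 ± 0.26), *SIR4* and *SIR1* of silencing were lower, 3 of 4 in all but only 1 of 4 without array 3. COMPASS had 1 of 9 lower, or 0 without array 2, and the Set3 complex 1 of 6.

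The Rpd3 large complex, a histone deacetylase, had 6 of 10 lower and 2 higher. *PHO23* scored −4.63, −1.41 and −2.52, *RXT3* −2.79, −1.74 and −3.12 (mean −2.55 ± 0.72), and *RXT2* averaged −1.95 ± 0.50. *UME6*, its DNA-binding recruiter, scored 1.67, 2.56 and 4.15 (mean 2.79 ± 1.26), and the scaffold *SIN3*, shared with the small Rpd3 complex, 1.10, 1.91 and 2.58 (mean 1.86 ± 0.74). Transcription complexes on the high side were the Mediator tail and CDK module, with 7 of 8 higher (6 held, median 2.19), led by *GAL11* (2.64 ± 0.76) and *SSN3* (2.39 ± 0.81), and SAGA, with 5 of 10 higher, among them *NGG1*, *ADA2* (2.98 ± 1.06) and *SGF29* (2.12 ± 0.39). *NGG1* and *ADA2* were called slow in growth, with scores of −1.95 and −2.42. *TUP1* was joined by *HDA3* (1.07 ± 0.03), *HDA2* (0.81 ± 0.15) and *ROX1* (1.12 ± 0.18). *CSE2* (−1.20 ± 0.44) and *MED4* (−0.76 ± 0.15) of the Mediator middle were lower.

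Of the RNA lists, those of decapping, wobble uridine thiolation and Elongator had over 50% of their members higher. In the decapping list 12 of 15 were higher and 0 lower, or 7 of 15 without array 3, with a median of 1.00. Thiolation of the wobble uridine in tRNA was higher in 4 of 4 scored genes, all held. *URM1*, the sulfur carrier, scored 2.09, 2.10 and 2.84 (mean 2.34 ± 0.43), *NCS2* averaged 2.09 ± 0.35, *NCS6* 2.09 ± 0.59 and *UBA4* 1.78 ± 0.73. Elongator, which modifies the same base, had 5 of 7 higher, led by *ELP6* (2.23 ± 0.69) and *ELP2* (2.03 ± 0.70), which were called slow in growth (−1.62 and −1.31). Among 32 other tRNA modification genes 4 were higher, a share near that of all strains (12.6%), with *CGI121* (3.05 ± 1.12) and *PUS7* the highest, and 1 was lower. Nuclear pore and RNA export had 4 of 23 higher, or 2 without array 3, and 2 lower, and cytosolic aminoacyl-tRNA synthetases 4 of 16 higher, or 1 without array 3, and 1 lower.

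Translation factors and their partners gave both signs, with 4 of 24 lower (16.7%), or 2 without array 1 and 1 without array 3, and 3 higher (12.5%). These shares were near those of all strains (14.4% and 12.6%), and the list median was 0.03. *TIF4631* (1.79 ± 0.13), an eIF4G, and *EFT2* (1.92 ± 0.70), elongation factor 2, were higher, and *TEF4* (−1.57 ± 0.06), a subunit of elongation factor 1B, was lower. *STM1* (2.56 ± 0.74), which preserves idle ribosomes, and *HBS1* (1.48 ± 0.27), which rescues stalled ones, were held higher calls, while *DOM34*, the partner of Hbs1, had −0.92, 1.59 and 2.04 and was not called. *TRF5* (3.16 ± 1.24) of the nuclear exosome and *SKI8* (1.34 ± 0.56) of the cytoplasmic one were higher.

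The NatC acetyltransferase, which acetylates the N terminus of proteins that begin with methionine and a hydrophobic residue, was higher in all 3 subunits. *MAK3*, its catalytic subunit, scored 1.42, 1.51 and 2.21 (mean 1.71 ± 0.43), *MAK10* 1.34, 1.27 and 2.26 (mean 1.62 ± 0.55) and *MAK31* 1.37, 1.21 and 1.47 (mean 1.35 ± 0.13). The other 5 scored genes of the list were not called, *MAP1*, the main methionine aminopeptidase, with 0.02 and 3.42 on 2 arrays. The 3 NatC strains had growth scores between −0.33 and −0.08, none called.

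The ubiquitin system outside the proteasome had 6 of 17 genes lower and 5 higher (4 and 2 held), with a median of 0.18. *DOA1* (−2.33 ± 0.80) and *UBP14* (−1.96 ± 0.30), which maintain free ubiquitin, were held lower calls. So were the ligase subunits *MUB1* (−1.80 ± 0.46) and *UBR2* (−1.72 ± 0.08). The conjugating enzyme *UBC4* (2.31 ± 1.05) and *RUP1* (0.94) were held higher calls. *BRE5* (2.18), *RPN4* (2.02) and *SAN1* (0.66) were called higher and not held. Prefoldin, which hands unfolded actin and tubulin to the chaperonin, had 5 of 6 lower and 0 higher, with *PAC10* (−2.12 ± 0.84), *GIM5* (−1.77 ± 0.72) and *YKE2* (−1.72 ± 0.52) held. *PFD1* averaged 0.85 ± 1.21 and was not called. Without array 2, or with the arrays of 20 µM alone, 3 of 6 were lower, and 1 was higher in the fit without array 2. *GIM5* and *YKE2* were called slow in growth (−1.54 and −1.52).

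In the list of polyamine synthesis and methylthioadenosine salvage, 3 of 9 genes were lower and 2 higher, or 1 higher without array 2 or array 3. *SPE1*, ornithine decarboxylase, scored 1.03, 1.95 and 1.79 (mean 1.59 ± 0.49), and *SPE3*, spermidine synthase, averaged 1.01 ± 0.45. Of the salvage of methylthioadenosine back to methionine, *UTR4* (−1.25 ± 0.57), *ADI1* (−0.92 ± 0.22) and *MDE1* (−0.73 ± 0.38) were lower. *SPE3* and *MDE1* were not held. The other 4 genes were not called, with means of 0.57 for *SPE2*, −0.35 for *SPE4*, −0.06 for *MEU1* and −0.60 for *MRI1*. *SPE1* and *SPE3* were called slow in growth without SeMet (growth scores −2.79 and −1.47).

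Smaller pathways held members of both signs as well. In the alkaline pH pathway, which reads signals through ESCRT proteins, *RIM20*, a scaffold, scored −1.37, −1.41 and −1.27 (mean −1.35 ± 0.07), whereas *RIM21*, the sensor, scored 0.55, 0.80 and 1.55 (mean 0.97 ± 0.52). The GID ubiquitin ligase, which degrades enzymes of gluconeogenesis, had *GID8* at −1.27 ± 0.51 and *VID28* at 1.36 ± 0.30. In the SEA complex, which controls TORC1, *NPR2* (1.55 ± 0.48) and *RMD11* (1.51 ± 0.71), were the held calls. *RAV1* (−1.33 ± 0.30) and *RAV2* (−0.80 ± 0.24), which assemble the vacuolar proton pump, were lower. Of the pump and its assembly factors only 3 of 21 listed genes were scored.

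Ion transport gave *PMP1* (−2.32 ± 0.43), a small regulator of the plasma membrane proton pump, on the low side, and the kinases *SKY1* (1.92 ± 0.40) and *PTK2* (1.69 ± 0.71), which act on ion transport, on the high side. *GEF1* (−1.94 ± 0.20), a chloride channel of the Golgi that is known in copper loading of Fet3, was lower and was picked after its values were seen. At the nuclear pore *POM34* was very even, with 1.12, 1.15 and 1.15 (mean 1.14 ± 0.02), and the export receptor *MSN5* scored −1.52, −1.96 and −3.57 (mean −2.35 ± 1.08). In glucan synthesis *FKS1* (1.31 ± 0.20), the main synthase, was the held call of 11 genes.

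Strains in none of the lists gave 142 held lower and 126 held higher calls among 2985, and those named here were chosen after their values were seen. On the low side were *AAT2* (−2.38 ± 0.37), cytosolic aspartate aminotransferase, *MSP1* (−2.26 ± 0.21), an ATPase that extracts mislocalized proteins from the mitochondrial membrane, *DBF2* (−2.10 ± 0.59), a kinase of mitotic exit, *TOA2* (−2.06 ± 0.22), a subunit of the general factor TFIIA, *CTP1* (−1.81 ± 0.39), the mitochondrial citrate carrier, and *PPZ1* (−1.76 ± 0.30), a phosphatase of potassium balance. *MAL31* (−1.69 ± 0.25) and *MAL33* (−1.75 ± 0.14), the maltose permease and activator of one locus, were lower. *CMD1*, calmodulin, scored −1.97, −1.35 and −2.97 (mean −2.09 ± 0.82) and averaged 0.32 at 12 µM.

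On the high side *ECM30*, of little known function, was even across the arrays, with 2.10, 2.08 and 2.14 (mean 2.11 ± 0.03). *ARV1* (2.97 ± 1.09), which acts in sterol and GPI transport, *FPS1* (2.57 ± 0.85), the glycerol channel, *SCP160* (2.50 ± 0.56), an RNA-binding protein of polysomes, *POS5* (2.17 ± 0.29), mitochondrial NADH kinase, *TPM1* (2.27 ± 0.68), tropomyosin, *CIN8* (2.24 ± 0.51), a spindle kinesin, and *BMH1* (1.92 ± 0.48), a 14-3-3 protein, were all above 1.5. *FPS1*, *POS5*, *TPM1* and *CIN8* were called slow in growth, with growth scores of −1.44, −0.97, −1.22 and −1.22.

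Several processes stayed near 0. Of the 114 lists outside the ribosome, proteasome and ESCRT lists, 17 had at least 50% of their scored members called lower and 12 at least 50% higher, against 14.4% and 12.6% of all strains, and 7 had no call. With the arrays of 20 µM fitted alone, 19 lists in place of 29 reached 50% in either direction. The 7 without a call were the histidine, pentose phosphate, dynein, tricarboxylic acid cycle, vitamin B6 and drug pump lists and the genes that the parent strain already lacks. The histidine list is no test of its pathway, because the parent lacks *HIS3*. Of the genes that the parent lacks, *HIS3* averaged −0.30 ± 0.25 and *MET17* 0.33 ± 0.08. Neither was called, though *MET17* was called higher once the arrays were centred. In DNA repair 2 of 14 genes of excision repair were called, and 5 of 16 of recombination were lower, or 1 without array 3. Of 15 genes of the DNA damage and replication checkpoint 5 were higher and 0 lower. Of these 2 were held, and 2 were higher with the arrays of 20 µM alone. Post-replication repair had 2 of 7 higher, or 0 without array 1 or array 3.

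Pairs of related genes were also compared. A list of 108 pairs of paralogues outside the cytosolic ribosome was written after strain values had been seen and is given as a description. In 93 pairs both strains were scored. Both members were called in the same direction in 8 pairs, in opposite directions in 7, 1 member alone in 38 and neither in 40. Of the 186 members 36.6% were called, against 26.9% of all strains, and the list was not chosen blind to these values. Whether pairs differed more often than unrelated genes was not tested. Among held calls 4 pairs were opposite: *RRD1* and *RRD2*, *MET13* and *MET12*, *MET31* and *MET32*, and *BCH1* and *BUD7* (1.32 ± 0.19) of the exomer. *BCH2* and its closest relative *CHS6* (−0.52 ± 0.22) were also called in opposite directions, *CHS6* not as a held call. *SAM1* and *SAM2* were both higher and *HMG1* and *HMG2* both lower. In other pairs the partner of a held strain was not called, as for *TSA2* (0.17 ± 0.21) beside *TSA1*, *NDE2* (−0.28 ± 0.23) beside *NDE1*, and *ALT2* (0.32 ± 0.38) beside *ALT1*.

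**Figure D5:**
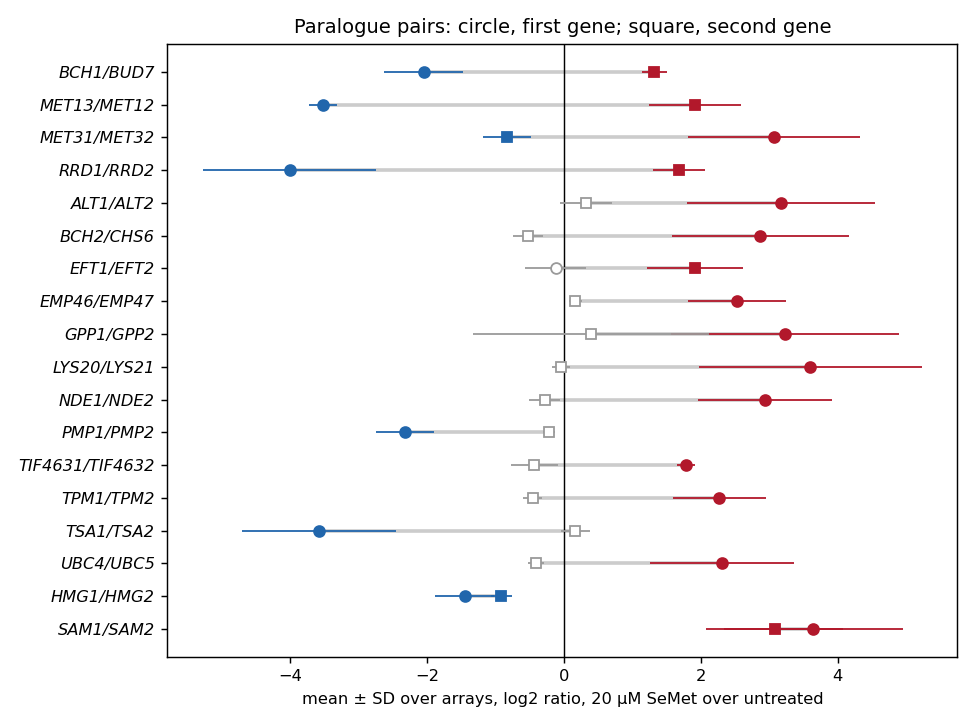
Mean log2 ratio at 20 µM SeMet over untreated for pairs of paralogues, with bars for the SD over arrays. Circles are the first gene of a pair and squares the second, blue and red mark held lower and higher calls, and open grey symbols are strains without a held call; the 4 uppermost pairs have held calls of opposite sign, and *HMG1*/*HMG2* and *SAM1*/*SAM2* at the bottom agree in sign.

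Neighbouring genes were compared because a strain that lacks a gene can lose part of the next one. Of 3375 pairs of neighbours with both strains scored, 20 had both scores beyond the same limit and 7 beyond opposite limits. Of the 20, 11 had no member in the ribosome, assembly, proteasome and ESCRT lists. Over all strains 3.06% were below −1.5 and 5.34% above 1.5. Whether neighbours shared a side more often than other pairs was not tested. On chromosome III, *PMP1* (−2.32 ± 0.43), *YCR025C* (−2.00 ± 0.54), *NPP1* (−2.15 ± 0.36) and *RHB1* (−3.38 ± 2.20) follow each other, and *PAT1* lies beside *PTC6* (3.02 ± 1.29). *MET13* lies beside *SCS3* (−1.87 ± 0.46), *EAP1* beside *LOS1* (1.56 ± 1.13), and *LSM1* beside *MTC1* (1.96 ± 0.67). Of 120 strains of chromosome III, 29 (24.2%) were called lower, 19 of them held. Which gene of such a pair sets a score was not tested.

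Few strains could be told apart between the concentrations. Of 4364 strains with a mean at 20 and 12 µM, limma called 5 different (0.115%), 4 lower and 1 higher at 20 µM, against 571 at an unadjusted p under 0.05. With each array scaled to the mean spread of its group 128 were called, 23 lower and 105 higher at 20 µM. Scaling the SeMet arrays to the same spread gave 17. Without array 1 of 20 µM 41 were called, without array 3 of 20 µM 43, and without array 2 of 20 µM or either array of 12 µM 0. Against 0, limma called 38 strains lower (0.871%) and 6 higher (0.137%) at 12 µM. The median of the 98 held strains below −1.5 was −1.99 at 20 µM, and −0.99 at 12 µM over the 91 of them with a mean there. For the 115 held strains above 1.5 the medians were 2.09 at 20 µM and 0.77 at 12 µM (108 strains). *KOG1* averaged −2.76 at 20 µM and 0.03 at 12 µM. *CKB1* averaged −2.40 at 20 µM and −3.23 at 12 µM, and *MET13* −3.52 at 20 µM and −4.53 at 12 µM. The difference did not pass the test for any of these 3 strains, which were chosen after their values had been seen.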

How the data were processed

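Values were deposited by the authors as log2 ratios of Cy3 over Cy5 per probe, made from GenePix Pro images with their own R scripts; the normalization method was not given in the sources used here. Of 15744 probes, 13084 carried a gene name in the platform annotation, and the other 2660 were left out of strain means. Probes of a gene were averaged on each array (860 scored strains rested on 1 probe). The log2 scale holds no counts, so the number of arrays limits the precision. Strain means were tested against 0, two-sided, with limma 3.58.1 in R 4.3.3 (lmFit and eBayes over 8 arrays as 3 groups), with Benjamini-Hochberg adjustment at 0.05 over all scored strains. Tables and plots were made with pandas 2.3.3, numpy 2.4.6 and matplotlib 3.10.9 under Python 3.11.15. The fit was tested on simulated data, where it recovered most shifts but gave false calls above the adjusted threshold. Genes named were the 15 lowest and 15 highest held means outside the ribosome, assembly, proteasome and ESCRT lists, up to 4 held calls of largest size per described list (otherwise its largest member), genes the study's text names, and paralogues; further members were added after their values had been seen. Members, lists and tests were chosen with earlier results of these data known. The paralogue list was written by hand after values had been seen, because no protein sequences were given. Alternatives were centring, scaling, the median of probes, filters on arrays and probes, a robust fit, the 3 arrays alone, each array left out and a replicate block.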

Additional observations from a re-analysis of the deposited data

Results flagged for a closer look

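The test of the difference between 20 and 12 µM passed for 5 strains, each at an adjusted p of 0.047 in limma. *SDA1*, a factor of ribosome export, averaged −2.47 at 20 µM and 0.03 at 12 µM, a difference of −2.51. *GWT1* averaged −2.22 at 20 µM and 0.03 at 12 µM, a difference of −2.24, and *GPI16* −2.04 at 20 µM and 0.09 at 12 µM, a difference of −2.13. Both belong to the synthesis and attachment of GPI anchors. *PPQ1*, a protein phosphatase, averaged −1.41 at 20 µM and −0.12 at 12 µM, a difference of −1.29. *RPS21A*, a ribosomal protein, was the strain that was higher at 20 µM, with 2.56 at 20 µM and 1.27 at 12 µM, a difference of 1.29. None of the differences passed after centring, with the replicate number as a block, without array 2 of 20 µM or without either array of 12 µM.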

How the results depend on the processing

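The count of 651 lower strains was 420 with the arrays of 20 µM alone and 393 to 518 with 1 of them left out. The 570 higher strains were 407 with the arrays of 20 µM alone and 393 to 494 with 1 left out, and all other alternatives gave 541 to 643 except 473 with 2 or more probes. For the difference between the concentrations, the 5 strains became 0 after centring and 128 with each array scaled to the mean spread of its group. They became 17 with the SeMet arrays scaled to the same spread, and 0 to 43 with 1 array of either concentration left out. Lists with at least 50% of members called one way numbered 29, and 19 with the arrays of 20 µM alone. For these changes the cause was not tested, apart from the fewer arrays in some fits. Over 258 named strains and 11 alternatives, 2756 results kept their direction and side of the threshold, 22 no longer passed it, 7 newly passed it and 0 changed sign. Of these strains 235 had been chosen as held calls, which fixes much of that agreement, and over all strains 578 of 1221 calls were not held. Whether replicate numbers pair the arrays could not be settled. Deviations from the group means had correlations of −0.14 and −0.27 between same-numbered arrays of 20 and 12 µM. Between same-numbered arrays of 20 µM and growth they were 0.16, −0.10 and −0.16. With 2 arrays of 12 µM the deviations of one mirror those of the other, so these values are not independent. With the replicate block 638 strains were lower, 541 higher and 0 different between concentrations, and 28 lists reached 50%. An alternative that defined paralogues by sequence identity was not run.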

Other observations

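Probes without a gene name in the annotation were scored as single probes by the same rule. Of 1549 such probes, 40 (2.58%) had a mean below −1.5 and 75 (4.84%) above 1.5 at 20 µM, against 292 (3.02%) and 532 (5.50%) of 9681 named probes. By chromosome, the share of strains called lower was 24.2% on chromosome III and 8.2% to 18.6% on the others. Of the 120 strains of chromosome III, 14 scored below −1.5 and 7 above 1.5. Neighbours beyond opposite limits included *LEU3* (−2.18) beside *SST2* (2.00), *RSC1* (−1.97) beside *MUP1* (1.83), and *GSH2* (−2.57) beside *GAL11* (2.64).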
